A study of Mus musculus with 9 samples.

Results

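The genes described here are 41 interferon-stimulated genes, chosen by symbol from a list of antiviral effectors, regulators, sensors, GTPases and ubiquitin-like modifiers. The deposited table held 40 of the 41 among its 17596 genes, and Mx2, an interferon-induced GTPase gene, was not found under its symbol or its gene ID and is not analysed here. All 40 averaged 1 FPKM or more and were tested together with every other gene above this limit, 10823 in all. FPKM are fragment counts divided by transcript length and by the total of mapped fragments, so levels of different genes are compared per length.

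RNA was sequenced from primary splenic B cells of mice aged 6 to 8 weeks. The control mice carried Mb1Cre, and the Mct1f/fMb1Cre mice carried the same Cre together with 2 floxed copies of Mct1 (Slc16a1), which encodes the transporter MCT1 for pyruvate and lactate. The Mb1 promoter drives Cre in the B lineage, so only cells of that lineage are expected to lose the gene, and no library came from mice without Cre. Cells were naive (day 0) or had been cultured for 3 days with LPS at 10 μg/ml and IL-4 at 50 ng/ml, which activate B cells and induce class switching (day 3). There were 2 libraries of each genotype on day 0, and 2 control and 3 Mct1f/fMb1Cre libraries on day 3. The labels do not say whether libraries of a group came from separate mice, so the p-values measure the spread between these libraries.

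Interferons bind receptors on the cell surface and signal through Janus kinases to transcription factors, among them STAT2 and IRF9, which act in one complex. This complex binds the interferon-stimulated response element in front of many genes, whereas interferon gamma acts largely through gamma-activated sites. The induced proteins cut, bind, trap or modify viral RNA and proteins, and some of them, such as USP18 and IRF7, damp or amplify the response itself. In B cells LPS signals through TLR4, which can also induce interferon-stimulated genes.

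Before the members, the targeted gene and the purity of the cells were examined. Slc16a1 stood at 22.6 and 23.0 FPKM in the day 3 control libraries and at 10.8, 9.81 and 9.5 FPKM in the day 3 Mct1f/fMb1Cre libraries, which is 44.1% of the control mean. The groups did not overlap, and the exact two-sided permutation p was 0.1, the smallest that 2 against 3 libraries can give. On day 0 the control libraries held 4.33 and 3.80 FPKM and the Mct1f/fMb1Cre libraries 3.71 and 4.06 FPKM. These overlapped (95.6% of control, exact permutation p = 0.667), so on day 0 the level of this transcript did not separate the genotypes and does not check the labels of those libraries.

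Transcripts of B cells were abundant in every library. The summed level of 10 B cell markers was 15500 and 16300 FPKM in the day 0 control, 14700 and 15500 FPKM in the day 0 Mct1f/fMb1Cre libraries, and 9350 to 9880 FPKM on day 3, with Cd74 the most abundant. Other cell types were also present on day 0. The summed level of 12 macrophage and monocyte markers, led by Lyz2, was 1320 and 1490 FPKM in the control and 1720 and 1470 FPKM in the Mct1f/fMb1Cre libraries, and it was 72.3 to 110 FPKM on day 3. The 8 neutrophil markers, led by S100a9, summed to 448 and 623 FPKM in the control and to 1410 and 499 FPKM in the Mct1f/fMb1Cre libraries on day 0, so replicate 1 of the Mct1f/fMb1Cre cells stood apart. The same library alone on day 0 held Y-linked transcripts at a high level, with 112 FPKM summed over Ddx3y, Eif2s3y, Kdm5d and Uty against 2.23 to 3.55 FPKM in the other day 0 libraries. On day 3 this sum was 74 to 95 FPKM in all 5 libraries. Both control libraries were therefore low in these transcripts on day 0 and high on day 3, and in the activation of the control and the interaction this difference cannot be told apart from that of the days. Because these are bulk samples, fewer cells of a type and less RNA per cell cannot be told apart.

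The promoters are shown first, since some of them hold the sequence through which the interferon complex acts. RefSeq promoter windows of the build GRCm38.p6, each running from 250 bases before to 50 bases after a transcript start, were matched for 32 of the 40 members. The core of the interferon-stimulated response element was searched as GAAA, any 2 bases, GAAA, and the gamma-activated site as TTCNNNGAA, on both strands. Matches of the core may overlap each other, and both patterns may fall on the same bases. The core was present in 16 of the 32 members (50.0%) and in 3.99% of the 27025 genes with a window. The gamma-activated site was present in 8 of the 32 (25.0%) and in 9.55% of all. The members were chosen as interferon-stimulated genes, so this share is a description of the list. Stretches are printed for 6 members described in the results that hold the core before the transcript start, and were chosen for holding it, on the strand of the gene, 5′ to 3′. Capitals mark the core, which reads TTTC, 2 bases, TTTC where it lies on the opposite strand. All of these stretches lie before the transcript start, Isg15 at chr4:156200857-156200914 (minus strand), Rsad2 at chr12:26456545-26456590 (minus), Ifit1 at chr19:34640767-34640831 (plus), Ifit3 at chr19:34583355-34583434 (plus), Bst2 at chr8:71537569-71537620 (minus) and Gbp2 at chr3:142620586-142620631 (plus).
Isg15: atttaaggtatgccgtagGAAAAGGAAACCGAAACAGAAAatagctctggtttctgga
Rsad2: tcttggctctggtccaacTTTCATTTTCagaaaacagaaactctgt
Ifit1: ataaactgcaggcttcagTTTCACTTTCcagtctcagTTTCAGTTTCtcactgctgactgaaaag
Ifit3: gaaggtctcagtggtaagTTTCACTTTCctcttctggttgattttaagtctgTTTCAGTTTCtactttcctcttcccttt
Bst2: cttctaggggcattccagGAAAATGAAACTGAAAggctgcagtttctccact
Gbp2: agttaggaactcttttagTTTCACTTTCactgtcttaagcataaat

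In Isg15 the core was found 3 times in overlapping copies, and the run of capitals began 78 bases before the start. Ifit1 and Ifit3, neighbours on chromosome 19, each held 2 separate copies on the opposite strand, at 104 and 156 bases before the start for the outer copy. The core in Ifih1 and Eif2ak2 lay after the transcript start. The windows of Ifi44, Oasl2, Irf9, Irf7 and Samd9l held no match to these letters, which says nothing of the rest of these genes.

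**Figure D1:**
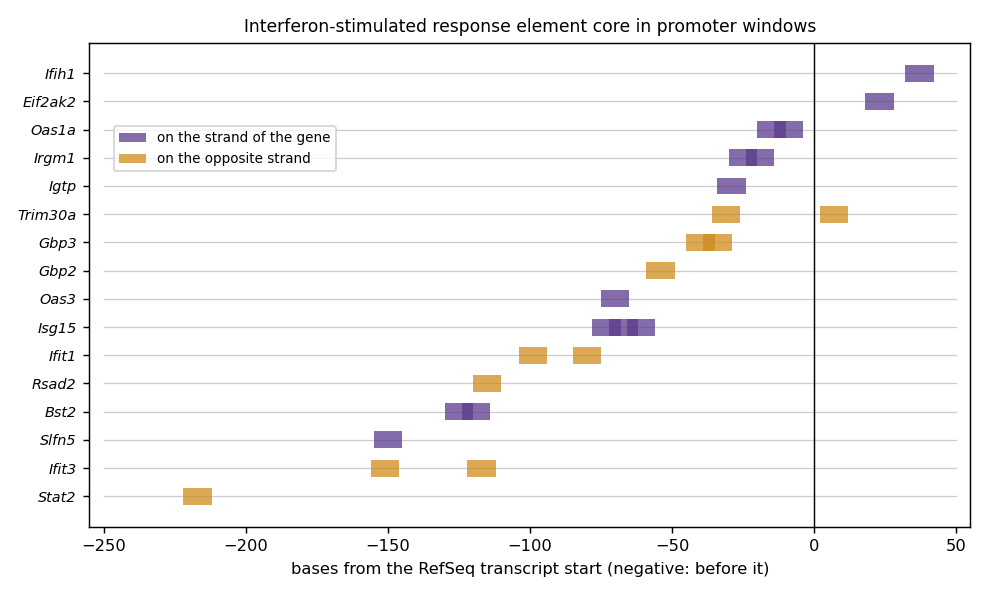
Position of each match to the response element core (bars, 10 bases wide) in the promoter windows of the 16 members that held one, in bases from the transcript start; grey lines span the window and colours give the strand. All matches before the start began within 156 bases of it except that of Stat2, at 222 bases; the 2 bars of Trim30a come from 2 different transcript starts.

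Activation raised most of the interferon-stimulated genes in both genotypes. In the control, 31 of the 40 members were higher on day 3 than on day 0 and 3 were lower, by limma at an adjusted p below 0.05 over all genes tested, with a change of more than 0.5 log2 units in either direction. Among all genes tested 24.8% were called higher and 33.0% lower. In the Mct1f/fMb1Cre cells, 29 members were higher and 4 lower, against 23.4% and 33.2% of all genes tested. Without replicate 2 of the day 0 Mct1f/fMb1Cre cells, all libraries of that genotype were high in Y-linked transcripts. The members' median log2 fold change was then 1.04, against -0.14 over all genes. The day 0 library left in that fit had the highest neutrophil, macrophage and red cell sums (1410, 1720 and 234 FPKM). The median log2 fold change of the members was 1.25 in the control and 0.96 in the Mct1f/fMb1Cre cells, against -0.12 and -0.14 over all genes. Together the members took 0.265% and 0.290% of all FPKM in the day 0 control libraries, 0.284% and 0.312% in the day 0 Mct1f/fMb1Cre libraries, 0.629% in each day 3 control library, and 0.575%, 0.590% and 0.599% in the day 3 Mct1f/fMb1Cre libraries. The neutrophil and red cell markers, at 448 to 1410 and 128 to 234 FPKM on day 0, summed to 2.73 to 7.41 and 4.38 to 8.13 FPKM on day 3, and the part of these cells and of macrophages in the activation values was not tested.

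Gbp2 changed most among the members. This guanylate-binding protein, a GTPase that acts on membranes of intracellular pathogens, had 16.9 and 18.8 FPKM in the day 0 control and 425 and 442 FPKM in the day 3 control. The values in the Mct1f/fMb1Cre cells were 19.02 and 17.6 FPKM before and 369.9, 362 and 360.4 FPKM after activation. The days were far apart in both genotypes, with a log2 fold change of 4.53 (SE 0.0558, adjusted p = 1.24e-12) in the control and of 4.24 (SE 0.0509, adjusted p = 6.36e-13) in the Mct1f/fMb1Cre cells. All 5 tested GTPases (Gbp2, Gbp3, Igtp, Irgm1 and Ifi47) rose in both genotypes. Of all genes tested, 24.8% were called higher in the control and 23.4% in the Mct1f/fMb1Cre cells.

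Isg15, the ubiquitin-like protein that is attached to other proteins, followed. It stood at 12.5 and 11.8 FPKM in the day 0 control and at 11.7 and 15.8 FPKM in the day 0 Mct1f/fMb1Cre libraries, and at 198 and 183 FPKM in the day 3 control and 134, 145 and 145 FPKM in the day 3 Mct1f/fMb1Cre libraries. All day 3 values lay above all day 0 values, and the day 3 control lay above the day 3 Mct1f/fMb1Cre cells. The log2 fold change with activation was 3.87 (SE 0.104, adjusted p = 4.81e-11) in the control and 3.29 (SE 0.0949, adjusted p = 7.25e-11) in the Mct1f/fMb1Cre cells. Of the 7 members of the ISG15, ubiquitin and ADP-ribose pathway, 6 rose in each genotype. The share of all genes called higher was 24.8% in the control and 23.4% in the Mct1f/fMb1Cre cells. Trim25, a ubiquitin ligase of RNA sensing, did not pass. It had 45.4 ± 4.22 FPKM (SD, n = 2) on day 0 and 45.1 ± 1.51 FPKM (SD, n = 2) on day 3 in the control. Parp9 and Dtx3l, which act as a pair, share overlapping gene ends, so their reads may not be fully separable.

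Isg20, an exonuclease that degrades RNA, had 17.6 and 21.9 FPKM in the day 0 control, 19.0 and 20.6 FPKM in the day 0 Mct1f/fMb1Cre cells, 215 and 201 FPKM in the day 3 control and 154, 177 and 159 FPKM in the day 3 Mct1f/fMb1Cre cells. Its log2 fold change was 3.34 (SE 0.094) in the control and 2.98 (SE 0.0858) in the Mct1f/fMb1Cre cells, and all day 3 libraries were above all day 0 libraries. Bst2, the membrane protein tetherin that holds budding viruses at the cell surface, had 57.0 and 65.7 FPKM in the day 0 control, 52.3 and 59.6 FPKM in the day 0 Mct1f/fMb1Cre cells, 222 and 198 FPKM in the day 3 control and 148, 153 and 151 FPKM in the day 3 Mct1f/fMb1Cre cells. It rose by 1.76 and 1.42 on the log2 scale in the 2 genotypes. Among the 8 other antiviral effectors, 5 rose in the control (Isg20, Bst2, Rsad2, Xaf1 and Rtp4). In the Mct1f/fMb1Cre cells 3 rose (Isg20, Bst2 and Xaf1). Of all genes tested, 24.8% were called higher and 33.0% lower in the control, and 23.4% and 33.2% in the Mct1f/fMb1Cre cells. Samd9l, of the same list, fell in both genotypes. The interaction of genotype and day, given below, was called in Rsad2 but not in Rtp4 (limma, adjusted p = 0.18).

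Sensors of viral nucleic acid among the 40 members were also raised. Zbp1, which binds Z-form nucleic acid and can start cell death, had 36.5 and 41.9 FPKM in the day 0 control, 41.02 and 50.0 FPKM in the day 0 Mct1f/fMb1Cre cells, 239 and 228 FPKM in the day 3 control and 211, 219 and 218 FPKM in the day 3 Mct1f/fMb1Cre cells. Its log2 fold change was 2.55 (SE 0.085) in the control and 2.23 (SE 0.0776) in the Mct1f/fMb1Cre cells. Ifih1, which encodes the RNA sensor MDA5, rose from 2.87 and 3.55 FPKM to 20.6 and 21.6 FPKM in the control, by 2.40 (SE 0.0794) on the log2 scale. In the Mct1f/fMb1Cre cells it rose from 4.29 and 4.14 FPKM to 15.7, 15.0 and 16.3 FPKM, by 1.67 (SE 0.0725). Dhx58 and Eif2ak2, an RNA helicase and the RNA-activated kinase PKR, rose in both genotypes, while Adar, an enzyme that edits double-stranded RNA, passed the adjusted p but not the fold limit, at 0.26 in the control and 0.47 in the Mct1f/fMb1Cre cells. Of 19 nucleic acid and LPS sensors and adaptors outside the members, 5 rose and 8 fell in each genotype, against 24.8% and 33.0% of all genes in the control and 23.4% and 33.2% in the Mct1f/fMb1Cre cells. Tlr9, which senses DNA in endosomes, had 67.1 and 64.2 FPKM in the day 0 control and 13.7 and 14.4 FPKM in the day 3 control and fell by 2.15 on the log2 scale, and Tlr3 and Cgas, sensors of double-stranded RNA and of DNA, fell by 1.38 and 0.53.

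The OAS family makes the messenger that activates RNase L. Oas3 had 6.24 and 7.78 FPKM in the day 0 control, 8.05 and 8.30 FPKM in the day 0 Mct1f/fMb1Cre cells, 46.7 and 47.1 FPKM in the day 3 control and 39.3, 41.4 and 45.4 FPKM in the day 3 Mct1f/fMb1Cre cells, and rose by 2.59 (SE 0.0875) and 2.23 (SE 0.0799) on the log2 scale. Oas1a and Oasl2 also rose in both genotypes. Oas2, their neighbour on chromosome 5 (Oas1a, Oas2 and Oas3 lie within 177.2 kb), did not: it had 12.6 and 15.3 FPKM in the day 0 control, 16.7 and 19.2 FPKM in the day 0 Mct1f/fMb1Cre cells, 15.0 and 14.3 FPKM in the day 3 control and 16.6, 17.9 and 18.9 FPKM in the day 3 Mct1f/fMb1Cre cells. The days overlapped in both genotypes, and the log2 fold change of Oas2 was 0.07 in the control (95% interval -0.14 to 0.29) and -0.01 in the Mct1f/fMb1Cre cells (95% interval -0.2 to 0.18). Oas1a shares 68.7% of its 31-base stretches with Oas1g, so its level may include reads of that copy.

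A few members went the other way. Ifit3 had 13.8 and 16.03 FPKM in the day 0 control, 16.5 and 24.1 FPKM in the day 0 Mct1f/fMb1Cre cells, 3.98 and 4.12 FPKM in the day 3 control and 3.46, 3.88 and 4.16 FPKM in the day 3 Mct1f/fMb1Cre cells, and fell by 1.65 (SE 0.143, adjusted p = 6.96e-07) and 2.12 (SE 0.13, adjusted p = 3.33e-08) on the log2 scale. Its neighbours within 99.5 kb of chromosome 19, Ifit1 and Ifit2, rose in both genotypes, so the 3 IFIT genes, which encode proteins that bind foreign RNA ends, were split. Ifit3 shares 61.8% of its 31-base stretches with Ifit3b, and how the authors' counting divided reads between them is not known. The listed mean of Ifit3b fell as well, from 3.24 to 0.38 FPKM in the control and from 4.64 to 0.323 FPKM in the Mct1f/fMb1Cre cells. Samd9l, an antiviral protein that restrains translation, had 85.0 and 79.7 FPKM in the day 0 control, 82.2 and 86.7 FPKM in the day 0 Mct1f/fMb1Cre cells, 23.2 and 25.8 FPKM in the day 3 control and 28.01, 28.3 and 26.4 FPKM in the day 3 Mct1f/fMb1Cre cells. It fell by 1.71 (SE 0.0613) and 1.58 (SE 0.0559) on the log2 scale.

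The transcription factors of the response differed in direction. Irf7, which amplifies interferon production, had 49.1 and 59.2 FPKM in the day 0 control, 57.6 and 71.1 FPKM in the day 0 Mct1f/fMb1Cre cells, 116 and 112 FPKM in the day 3 control and 102, 113 and 120.3 FPKM in the day 3 Mct1f/fMb1Cre cells. Stat2 had 34.2 and 34.3 FPKM in the day 0 control, 34.2 and 36.3 FPKM in the day 0 Mct1f/fMb1Cre cells, 58.6 and 61.6 FPKM in the day 3 control and 67.7, 64.7 and 66.1 FPKM in the day 3 Mct1f/fMb1Cre cells. Both rose, Irf7 by 1.07 and 0.79 and Stat2 by 0.79 and 0.89 on the log2 scale in the control and the Mct1f/fMb1Cre cells. Irf9, the DNA-binding subunit of the same complex as Stat2, had 70.1 and 76.5 FPKM in the day 0 control, 75.9 and 80.5 FPKM in the day 0 Mct1f/fMb1Cre cells, 46.4 and 46.2 FPKM in the day 3 control and 49.2, 49.1 and 48.0 FPKM in the day 3 Mct1f/fMb1Cre cells. It fell by 0.65 (SE 0.0506) and 0.67 (SE 0.0462). Usp18, which removes ISG15 and blocks the interferon receptor, had 6.91 and 8.43 FPKM in the day 0 control, 8.77 and 10.8 FPKM in the day 0 Mct1f/fMb1Cre cells, 35.7 and 32.5 FPKM in the day 3 control and 27.7, 30.4 and 31.7 FPKM in the day 3 Mct1f/fMb1Cre cells, and rose by 2.02 and 1.53 on the log2 scale.

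Epsti1, whose role is less defined, was called lower in the Mct1f/fMb1Cre cells, with 54.0 and 59.1 FPKM in the day 0 control, 60.9 and 62 FPKM in the day 0 Mct1f/fMb1Cre cells, 42.8 and 44.6 FPKM in the day 3 control and 38.9, 40.8 and 41.6 FPKM in the day 3 Mct1f/fMb1Cre cells. Its log2 fold change was -0.36 in the control and -0.59 in the Mct1f/fMb1Cre cells. Cmpk2, a nucleotide kinase next to Rsad2 on chromosome 12, passed in neither genotype (-0.13 and -0.08), although Rsad2 rose in the control. Scaling each library to a common total moved the median over all genes from -0.12 to -0.31 in the control, and the members' median then lay 1.36 above it, against 1.38 as reported. Under that scaling 2078 genes were called higher and 4416 lower in the control, under quantile normalization 3120 and 2956, and as reported 2687 and 3571, and the number of members called higher was 31 each time.

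**Figure D2:**
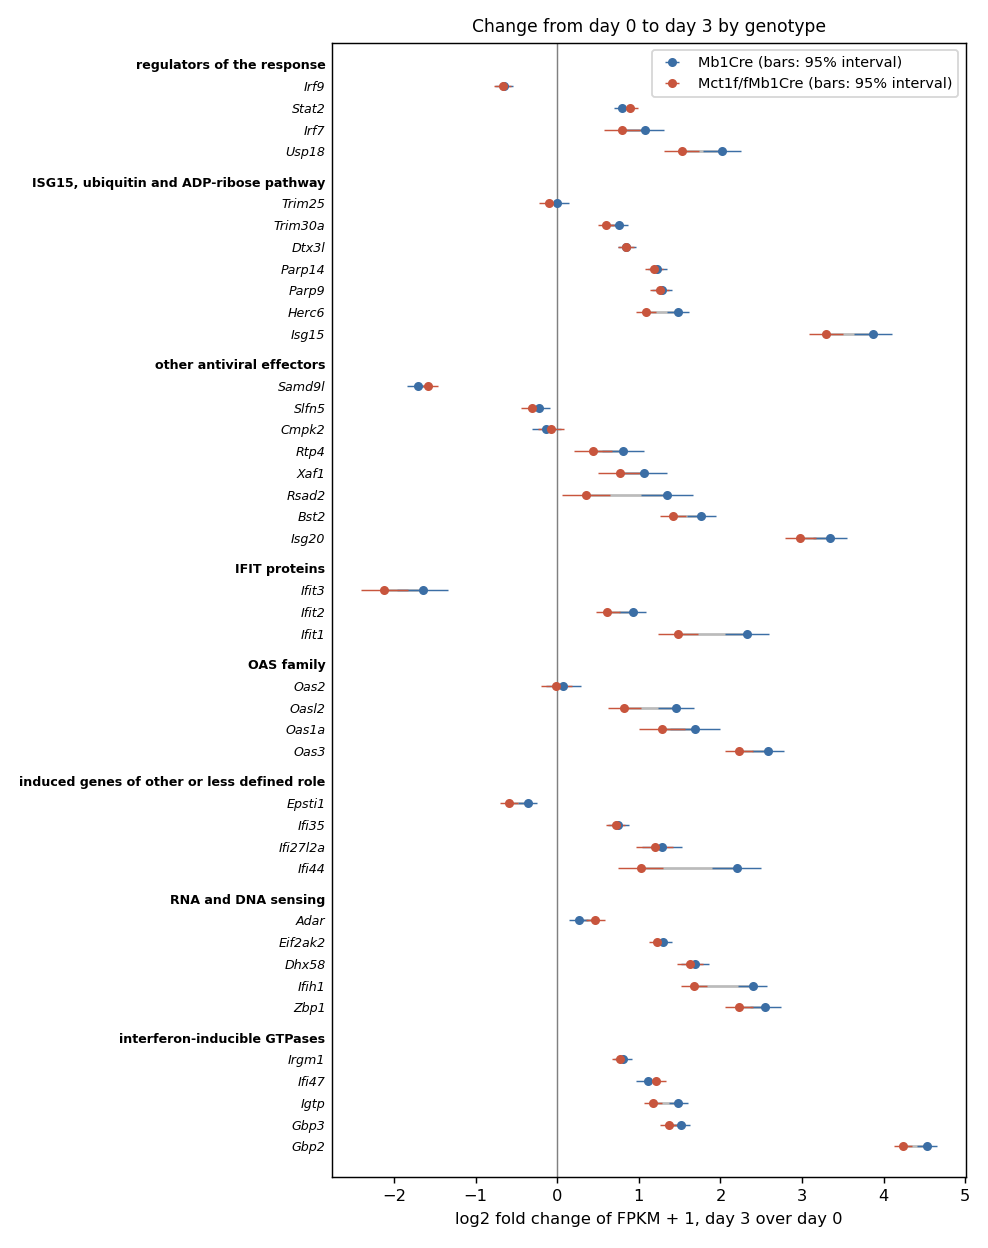
Log2 fold change of FPKM + 1 from day 0 to day 3 for the 40 members, grouped by role, in the control (blue) and the Mct1f/fMb1Cre cells (red); points are estimates from the limma fit, bars 95% intervals, and grey lines join the genotypes. Most points lie to the right of 0, with Gbp2 and Isg15 farthest, Ifit3, Samd9l and Irf9 to the left of 0, and the widest gaps between the genotypes in Ifi44 and Rsad2.

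The day 0 libraries of one genotype differed from each other in these genes. Replicate 2 of the Mct1f/fMb1Cre cells held the highest value of the 4 day 0 libraries in 33 of the 40 members, and in 22.4% of all genes tested. Replicate 1 of the control held the lowest value in 27 of the 40 members, and in 21.7% of all genes. In log2(FPKM + 1), the median distance of the members from the mean of the other 3 day 0 libraries was -0.17 in replicate 1 of the control and 0.17 in replicate 2 of the Mct1f/fMb1Cre cells. It was 0.00 in each of the remaining day 0 libraries, and between -0.01 and 0.01 in all 4 over all genes tested.

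The difference ran within as well as between the genotypes. Replicate 2 exceeded replicate 1 in 33 of 40 members in the control (median 0.14 on the log2 scale) and in 36 of 40 in the Mct1f/fMb1Cre cells (median 0.11), against 43.1% and 50.7% of all genes tested. In 30 members replicate 2 was above replicate 1 in both genotypes, as in 22.8% of all genes. In 23 members replicate 1 of the control was lowest and replicate 2 of the Mct1f/fMb1Cre cells highest, as in 6.73% of all genes. The labels do not say whether libraries with the same replicate number belong together, and they were treated as unpaired.

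Ifit3, Rsad2, Ifit1, Rtp4, Oas1a and Oasl2 had the widest day 0 range, between 0.60 and 0.77 on the log2 scale. Ifit3, given above, reached 24.1 FPKM in replicate 2 of the Mct1f/fMb1Cre cells and no more than 16.5 FPKM in the others. Rtp4, a chaperone of receptors with antiviral activity, had 25.3 and 33.6 FPKM in the control and 32.4 and 40.3 FPKM in the Mct1f/fMb1Cre cells, so the genotypes overlapped. Irf7 and Usp18 had the same lowest and highest library. Among the transcripts that did not follow it, Gbp2 had its highest day 0 value in replicate 1 of the Mct1f/fMb1Cre cells, and Bst2 in replicate 2 of the control. The median SD of the members within a group, in log2(FPKM + 1), was 0.102 and 0.0847 on day 0 (control and Mct1f/fMb1Cre), against 0.0582 and 0.0496 over all genes, and 0.0488 and 0.0483 on day 3, against 0.0461 and 0.057.

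The other cell types measured on day 0 followed the order of the members only in part. Replicate 1 of the control, the lowest in most members, was also the lowest library for the summed markers of neutrophils (448 FPKM), macrophages (1320 FPKM), plasma cells (185 FPKM), conventional dendritic cells (76.3 FPKM) and NK cells (82.0 FPKM). Replicate 2 of the Mct1f/fMb1Cre cells, the highest in most members, was not the highest library for any of these lists. Neutrophil, macrophage and red cell markers were highest in replicate 1 of the Mct1f/fMb1Cre cells, with summed levels of 1410, 1720 and 234 FPKM, and in replicate 2 of that genotype the same lists summed to 499, 1470 and 148 FPKM. Plasmacytoid dendritic cells are known as strong interferon producers. Their 8 markers, led by Siglech at 15.5 to 21.8 FPKM, summed to 63.3 and 64.6 FPKM in the control and 48.9 and 57.6 FPKM in the Mct1f/fMb1Cre cells, none of them under 1 FPKM in every day 0 library. B cell markers summed to 15500 FPKM in both the library with the highest and the library with the lowest members. Further interferon-stimulated genes outside the 40, of which 92 were tested, were highest in replicate 2 of the Mct1f/fMb1Cre cells in 45 cases and lowest in replicate 1 of the control in 41, with median distances of 0.07 and -0.07 from the other day 0 libraries. The part of other cell types in the order of the day 0 libraries was not tested.

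**Figure D3:**
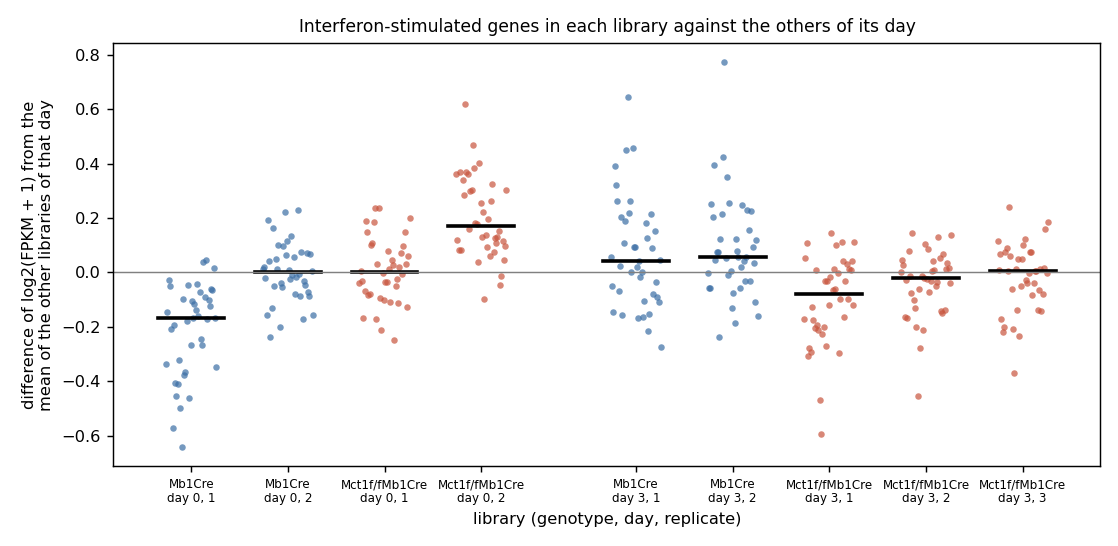
Difference of log2(FPKM + 1) of each of the 40 members (points) in a library from the mean of the other libraries of the same day, for the control (blue) and the Mct1f/fMb1Cre cells (red); black bars are medians. On day 0 the bar lies at -0.17 in replicate 1 of the control and at 0.17 in replicate 2 of the Mct1f/fMb1Cre cells, with the others at 0.00; on day 3 the bars lie between -0.08 and 0.06.

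Between the genotypes on day 0, no member was called. Of all genes tested 0.24% were called higher and 0.037% lower in the Mct1f/fMb1Cre cells. By the adjusted p alone, Slfn5 was higher, 1 of 40 against 0.351% of all genes. At an unadjusted p under 0.05, 17 members were higher and 0 lower, against 6.69% and 5.04% of all genes. Slfn5, a member of the Schlafen family, had 14.7 and 16.3 FPKM in the control and 19.8 and 21.0 FPKM in the Mct1f/fMb1Cre cells, with no overlap. Its log2 fold change was 0.38 (SE 0.0629, adjusted p = 0.0314). The signs were mostly positive: 36 of 40 members had a positive log2 fold change, with a median of 0.12, against 48.8% of all genes and a median of -0.002. Of the markers of other cell types, Jchain (plasma cells; log2 fold change 0.97, adjusted p = 0.0193) and Hba-a1 (red cells; 0.64, adjusted p = 0.0293) were called higher in the Mct1f/fMb1Cre cells in the same comparison and none lower, and their part in the members' values was not tested. All Mct1f/fMb1Cre libraries lay above all control libraries in 18 members (18.7% of all genes) and below them in 0 (19.7% of all genes).

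The largest day 0 estimates did not pass. Rsad2, the radical SAM enzyme viperin, had 2.83 and 4.64 FPKM in the control and 5.05 and 5.26 FPKM in the Mct1f/fMb1Cre cells, with a log2 fold change of 0.41 (SE 0.146, adjusted p = 0.335). Ifit1 had 2.47 and 3.78 FPKM in the control and 4.16 and 4.58 FPKM in the Mct1f/fMb1Cre cells (log2 fold change 0.40, SE 0.121, adjusted p = 0.254). Ifit3 had an estimate of 0.40 (SE 0.143, adjusted p = 0.324) and Oasl2 of 0.36 (SE 0.0984, adjusted p = 0.213). In each of these the control replicate 1 was the lowest library. Leaving out a library of a group of 2 leaves 1, which is then assumed to vary like the other groups. Without replicate 2 of the control, Ifit1 (0.63), Oasl2 (0.55) and Rsad2 (0.68) were called, and without replicate 1 of the Mct1f/fMb1Cre cells Ifit3 was (0.66). The members' median was 0.18 and 0.19 in these cases, and 0.09 without replicate 1 of the control and 0.06 without replicate 2 of the Mct1f/fMb1Cre cells.

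On day 3, 2 of the 40 members were called lower in the Mct1f/fMb1Cre cells and none higher, against 1.53% and 0.887% of all genes tested. By the adjusted p alone, 10 members were lower and 2 higher, against 9.21% and 6.03% of all genes. The median log2 fold change was -0.05, close to -0.01 over all genes. All Mct1f/fMb1Cre libraries lay below all control libraries in 19 members (26.1% of all genes) and above them in 9 (21.0% of all genes).

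Ifi44, a GTP-binding protein of poorly known function, differed most. It had 7.18 and 7.79 FPKM in the day 3 control and 3.12, 3.45 and 3.66 FPKM in the day 3 Mct1f/fMb1Cre cells, which is 45.6% of the control mean. The groups were well apart, with a log2 fold change of -0.95 (SE 0.124, adjusted p = 0.000697). Rsad2 had 10.9 and 10.7 FPKM in the control and 6.11, 7.26 and 7.23 FPKM in the Mct1f/fMb1Cre cells, or 63.8% of the control mean. Its log2 fold change was -0.58 (SE 0.133, adjusted p = 0.0146), and the call was lost without replicate 1 of the day 3 control (adjusted p = 0.0981) and without replicate 2 (adjusted p = 0.0798).

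Of the members lower by the adjusted p alone, Bst2, given above, was at 71.7% of the control mean, with a log2 fold change of -0.48 (SE 0.0724, adjusted p = 0.00164). Ifit1 had 18.6 and 20.1 FPKM in the control and 13.4, 14.5 and 14.2 FPKM in the Mct1f/fMb1Cre cells (-0.44, SE 0.111, adjusted p = 0.0231). Isg15 was at 74.2% of the control mean (-0.43, SE 0.0949, adjusted p = 0.0127). No Mct1f/fMb1Cre library reached a control library in any of these. Ifih1 (74.2% of control), Isg20 (78.4%), Herc6 (80.6%), Gbp2 (84.0%) and Igtp (89.2%) were the remaining members lower by the adjusted p alone. Bst2 and Ifih1 kept an adjusted p under 0.05 in all 19 other settings, whereas Igtp lost it in 11 (up to 0.24), Ifit1 in 7 (up to 0.154), Isg20 in 5 (up to 0.159), Isg15 and Herc6 in 2 each, and Gbp2 in 1. Herc6 is the ligase that attaches ISG15 in the mouse, and Igtp and Gbp2 are GTPases. Igtp (15.9%), Herc6 (13.8%), Isg15 (12.8%) and Ifit1 (10.5%) share part of their 31-base stretches with other genes, so reads of those copies may be included in their levels.

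The members that were higher by this rule were Slfn5, with 12.7 and 13.6 FPKM in the control and 15.95, 16.2 and 16.6 FPKM in the Mct1f/fMb1Cre cells (0.29, adjusted p = 0.00694), and the GTPase Ifi47, with 97.1 and 96.1 FPKM in the control and 116, 112 and 114 FPKM in the Mct1f/fMb1Cre cells (0.24, adjusted p = 0.0183, lost in 6 of 19 other settings). The adjusted p of Slfn5 reached 0.419 on day 0 and 0.0847 on day 3 under other settings, and on day 0 it was above the threshold in 11 of 19 of them. None of the 4 regulators passed on day 3: Stat2 was at 110% of the control mean (adjusted p = 0.0594), Irf9 at 105%, Irf7 at 97.7% and Usp18 at 87.9%. The OAS genes were not called either, with Oasl2 at 82.7% (adjusted p = 0.0702) and Oas2 at 121% (adjusted p = 0.0702) of the control mean. Dhx58 was at 100% of the control mean, with a 95% interval of its log2 fold change from -0.15 to 0.16. The sums of the dendritic cell lists and of the macrophage list differed between the genotypes on day 3. The 8 conventional dendritic cell markers summed to 51.9 and 48.3 FPKM in the control and 15.4, 17.1 and 15.9 FPKM in the Mct1f/fMb1Cre cells, with 5 of the 8 under 1 FPKM in every day 3 library. The 8 plasmacytoid markers summed to 38.1 and 35.4 FPKM against 20.8, 24.6 and 23.4 FPKM, with 6 of 8 under 1 FPKM in every day 3 library, among them Siglech at 0.04 to 0.09 FPKM. The plasmacytoid sum was carried by Cox6a2, which had 29.2 and 27.7 FPKM in the control and 9.94, 14.7 and 13.6 FPKM in the Mct1f/fMb1Cre cells, while Pacsin1, the other gene of the list above 1 FPKM, had 7.77 and 7.02 FPKM against 10.0, 8.99 and 8.98 FPKM. Xcr1 was at 0.18 to 0.26 FPKM and Itgax at 0.36 to 0.45 FPKM, and the rest of the conventional list was carried by Batf3, Flt3 and Zbtb46. The 12 macrophage and monocyte markers, of which 6 were under 1 FPKM in every day 3 library, summed to 110 and 103 FPKM in the control and 72.3, 74.4 and 79.5 FPKM in the Mct1f/fMb1Cre cells. Of these, Ly6c2 was called lower (log2 fold change -1.02), but Lyz2 (0.71, adjusted p = 0.0015) and Adgre1 (0.68, adjusted p = 0.000425) were called higher in the Mct1f/fMb1Cre cells. The part of such cells in the members' values was not tested.

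**Figure D4:**
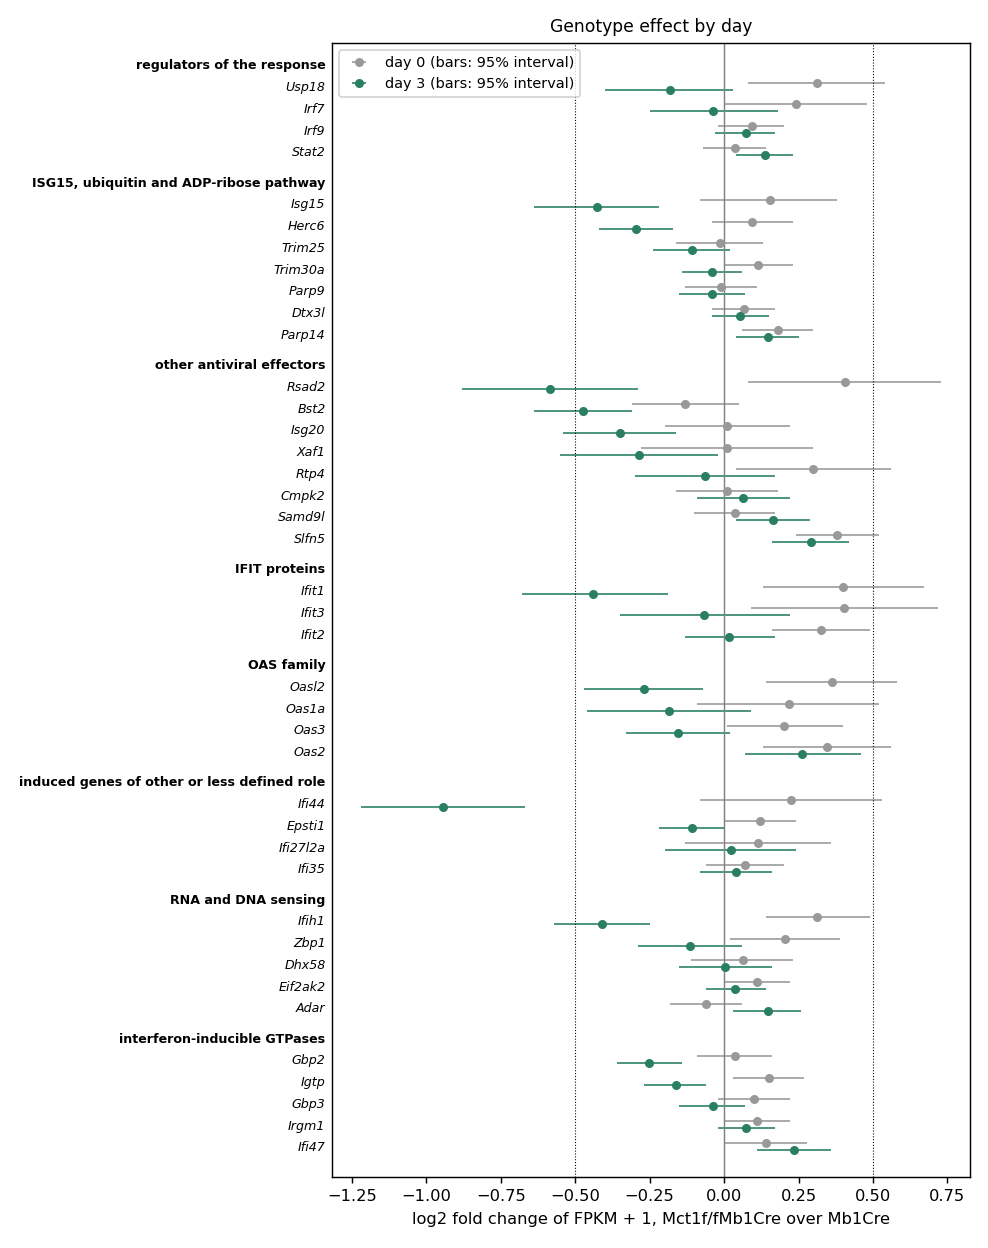
Log2 fold change of FPKM + 1 in the Mct1f/fMb1Cre cells over the control on day 0 (grey) and day 3 (green) for the 40 members, with 95% intervals from the limma fit; dotted lines mark 0.5 in each direction. The day 0 points lie mostly to the right of 0, and on day 3 Ifi44 and Rsad2 lie beyond -0.5.

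Because the genotype estimates were mostly above 0 on day 0 and mixed on day 3, the difference between them was tested itself, as the interaction of genotype and day. It was called negative in 6 of the 40 members, against 2.22% of all genes tested, and positive in none, against 1.02% of all genes. By the adjusted p alone it was negative in 9 members, against 5.61% of all genes; the others were Herc6, Igtp and Gbp2, which lost the adjusted p in 4, 7 and 13 of 19 other settings. With a replicate block their adjusted p was 0.0664, 0.0664 and 0.115. The estimate was negative in 35 of 40 members, with a median of -0.25 against -0.02 over all genes. A negative value means that the rise from day 0 to day 3 was smaller, or the fall larger, in the Mct1f/fMb1Cre cells. Genes from the lists of other cell types were called in the interaction too. It was negative in Batf3 (-2.17), Flt3 (-1.52) and Zbtb46 (-0.61) of the conventional dendritic cell list and Cox6a2 (-0.85) of the plasmacytoid list. It was also negative in Ly6c2 (-1.26) of the macrophage and monocyte list, Hba-a1 (-0.91) of the red cell list and Jchain of the plasma cell list. It was positive in Lyz2 (0.57) and Adgre1 (0.51) of the macrophage and monocyte list. From day 0 to day 3 the control mean of Batf3 rose from 7.04 to 27.0 FPKM, Flt3 from 13.1 to 17.5, Zbtb46 from 3.77 to 4.89 and Cox6a2 from 9.65 to 28.4. Over the same days Itgax fell from 31.2 to 0.4 FPKM, Clec9a from 5.21 to 0.02 and Siglech from 21.3 to 0.055. The 6 plasma cell markers, with Jchain the most abundant on day 0, Xbp1 on day 3 and 1 (Tnfrsf17) under 1 FPKM in every library, summed to 185 and 197 FPKM in the day 0 control, 282 and 239 FPKM in the day 0 Mct1f/fMb1Cre cells, 473 and 457 FPKM in the day 3 control and 408, 390 and 379 FPKM in the day 3 Mct1f/fMb1Cre cells. Jchain, the joining chain of secreted antibodies, had an interaction of -1.44 (adjusted p = 0.00246). Of the other markers, Irf4 had an interaction of -0.45 (adjusted p = 0.00279, under the fold limit), and Xbp1 (-0.17), Sdc1 (0.37) and Prdm1 (0.20) did not pass. The part of these cells in the members' interaction was not tested.

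Ifi44 had 0.90 and 0.80 FPKM in the day 0 control and 0.83 and 1.55 FPKM in the day 0 Mct1f/fMb1Cre cells, and rose 8.81-fold in mean FPKM in the control and 2.87-fold in the Mct1f/fMb1Cre cells. The interaction was -1.17 (SE 0.185, adjusted p = 0.00476), on values that were low on day 0. Rsad2 rose 2.88-fold in the control and had 1.33 times its day 0 mean in the Mct1f/fMb1Cre cells, where the change was not called (log2 fold change 0.35). Its interaction was -0.99 (SE 0.197, adjusted p = 0.0126). Ifit1 rose 6.20-fold and 3.21-fold, with an interaction of -0.84 (SE 0.164, adjusted p = 0.0119). Ifih1 rose 6.57-fold and 3.71-fold, with an interaction of -0.72 (SE 0.107, adjusted p = 0.00356).

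Oasl2, an OAS-like protein with ubiquitin-like domains, had 15.5 and 20.6 FPKM in the day 0 control, 22.6 and 24.0 FPKM in the day 0 Mct1f/fMb1Cre cells, 50.3 and 51.1 FPKM in the day 3 control and 40.1, 42.0 and 43.6 FPKM in the day 3 Mct1f/fMb1Cre cells. The genotypes did not overlap on either day and stood in opposite order, with an interaction of -0.63 (SE 0.133, adjusted p = 0.0167). The same held for Rsad2, Ifit1 and Ifih1, and also for Usp18, Oas3, Igtp and Epsti1, whose interaction was not called. The share of all genes with this order is not given here. Isg15 rose 15.7-fold and 10.3-fold, with an interaction of -0.58 (SE 0.141, adjusted p = 0.0296). This call of Isg15 was lost with a replicate block. Rtp4 was called in the activation of the control and not in that of the Mct1f/fMb1Cre cells, but its interaction of -0.36 did not pass (adjusted p = 0.18), nor did those of Usp18 (-0.49, adjusted p = 0.057) and Bst2 (-0.34, adjusted p = 0.0727).

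Ifi44 and Ifih1 kept this call whichever of the 9 libraries was left out, and Ifit1 and Rsad2 in 8 of the 9 cases. Without replicate 1 or replicate 2 of the day 3 control, 3 members were called. Without replicate 2 of the day 0 control 9 were called, of which 5 were also called with all libraries. Without replicate 1 of the day 0 control and without replicate 2 of the day 0 Mct1f/fMb1Cre cells 5 were called each time, and the members' median was -0.14 and -0.17. Isg15 lost its call in 7 of the 9 cases, and kept it only without replicate 1 of the day 0 control and without replicate 1 of the day 0 Mct1f/fMb1Cre cells. Oasl2 lost its call without replicate 1 of the day 0 control (-0.44) and without either library of the day 3 control.

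**Figure D5:**
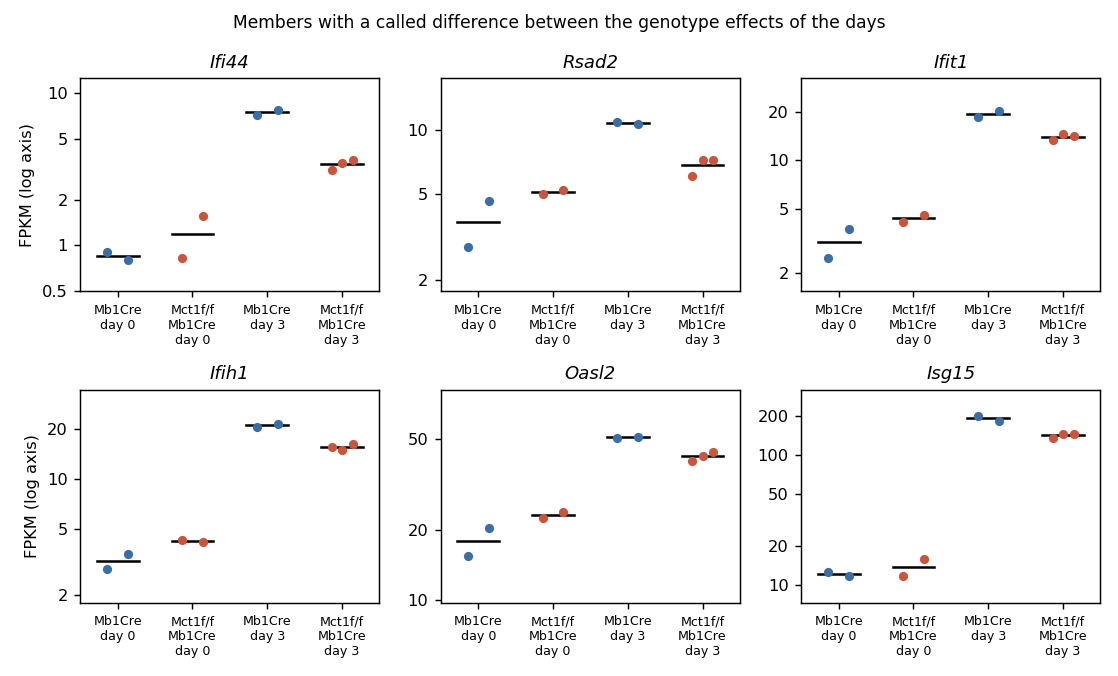
FPKM (log axis) in every library (points) and the mean of each group (bars) for the 6 members with a called interaction, in the control (blue) and the Mct1f/fMb1Cre cells (red) on day 0 and day 3. In each panel the day 3 control lies above the day 3 Mct1f/fMb1Cre libraries, and on day 0 the order is the opposite in Rsad2, Ifit1, Ifih1 and Oasl2, while Ifi44 and Isg15 overlap.

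The pathway upstream of the members was measured in the same libraries. Of 20 interferon ligand genes 7 had a row, and none reached a mean of 1 FPKM: Ifnb1 was listed at 0 in all day 0 libraries and at 0.07, 0.21, 0.00, 0.14 and 0.07 FPKM in the control and Mct1f/fMb1Cre libraries of day 3, and Ifng at 0.52 to 1.5 FPKM over all libraries. Among 9 tested receptor and JAK-STAT genes, 0 were called between the genotypes on either day (by limma, 1 and 6 had an unadjusted p under 0.05 on day 0 and day 3, as had 11.7% and 29.0% of all genes tested), while activation lowered 6 in the control and 7 in the Mct1f/fMb1Cre cells and raised 0, against 33.0% and 33.2% of all genes called lower and 24.8% and 23.4% called higher. Ifngr1, a chain of the interferon gamma receptor, had 72.5 and 84.9 FPKM in the day 0 control and 14.3 and 14.04 FPKM in the day 3 control, and fell by 2.39 on the log2 scale. Ifnar1, a chain of the type I receptor, fell by 0.71 in the control and 0.81 in the Mct1f/fMb1Cre cells.

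Ifnar2, the other chain of the type I receptor, had 39.1 and 40.2 FPKM in the day 0 control, 47.6 and 45.8 FPKM in the day 0 Mct1f/fMb1Cre cells, 33.95 and 33.4 FPKM in the day 3 control and 27.9, 28.3 and 28.6 FPKM in the day 3 Mct1f/fMb1Cre cells. The genotypes stood in opposite order on the 2 days, as in Oasl2, and the interaction of -0.48 had an adjusted p of 0.00144 without reaching the fold limit. Tlr4, the receptor of LPS, had 4.85 and 4.47 FPKM in the day 0 control and 1.96 and 2.42 FPKM in the day 3 control and fell by 0.83. Irf1, which drives many interferon gamma targets, was not called in any comparison, with 66.8 to 82.0 FPKM over all libraries.

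Of 14 negative regulators of the pathway, 1 (Socs3) was called lower and 1 (Nlrc3) higher in the Mct1f/fMb1Cre cells on day 3. Of all genes tested, 1.53% were called lower and 0.887% higher. Socs3, an inhibitor of cytokine receptors, had 33.5 and 30.9 FPKM in the control and 17.4, 18.4 and 19.4 FPKM in the Mct1f/fMb1Cre cells (log2 fold change -0.78, SE 0.0918, adjusted p = 0.000355). Socs1, the inhibitor of the interferon receptors' kinases, rose by 3.33 with activation in the control and by 3.74 in the Mct1f/fMb1Cre cells. Among the 92 further interferon-stimulated genes, 1 was higher and 8 were lower on day 3, against 0.887% and 1.53% of all genes tested. On day 0 limma called 0, and 24 had an unadjusted p under 0.05, all higher, against 6.69% of all genes. The interaction was called negative in 11, against 2.22%, and positive in 0, against 1.02%. Those called in the interaction included Ifi207 and Ifi204, which belong to the DNA-sensing family of interferon-inducible nuclear proteins. Ly6c2, a surface protein also found on monocytes, was called as well and is the same gene as in the macrophage and monocyte list. Markers of other cell types called in the interaction are given above, and their part in these values was not tested. Ifi207 had 3.56 and 3.75 FPKM in the day 3 control and 1.17, 1.56 and 1.35 FPKM in the day 3 Mct1f/fMb1Cre cells (log2 fold change -0.98, SE 0.114, adjusted p = 0.00031). With activation, 36 of the 92 rose and 27 fell in the control and 33 rose and 32 fell in the Mct1f/fMb1Cre cells, against the 24.8%, 33.0%, 23.4% and 33.2% of all genes given above.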

How the data were processed

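The 9 RNA-seq libraries were analysed from the FPKM values that the authors deposited, 1 row per gene for 17596 genes, already normalized to transcript length and mapped fragments. The sequencing institute prepared the table, and the submitters' processing notes name Bowtie2 and the builds GRCm38 and mm10. The counting tool is not given in the sources used here, no reads could be recovered from the low values, and depth is unknown. The sums of FPKM were 477079 to 491459 on day 0 and 547355 to 563586 on day 3.

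Genes averaging 1 FPKM or more were tested on log2(FPKM + 1) with limma 3.58.1 (R 4.3.3): 4 group means in 1 fit, empirical Bayes with trend, Benjamini-Hochberg adjustment over 10823 genes. Calls required an adjusted p below 0.05 and a change of more than 0.5 log2 units on this scale, which understates the change of low genes. The fit was also run on simulated data, and no outcome of that run is given here. Full statistics were given to the called members by size, up to 6 in each direction, or to the 5 largest where fewer than 3 were called. Members, lists and tests were chosen with earlier results of these data known. Shared 31-base stretches came from GENCODE transcripts, and promoters and positions from RefSeq. Other pseudocounts, filters, fold limits, scalings, a replicate block and leaving out each library were tried.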

Additional observations from a re-analysis of the deposited data

Results flagged for a closer look

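The genotype effect differed between the days, by the interaction test of the limma fit over all 10823 genes, in the genes below. Among the 40 members these were Ifi44 (-1.17), Rsad2 (-0.99), Ifit1 (-0.84), Ifih1 (-0.72), Oasl2 (-0.63) and Isg15 (-0.58), as log2 values of the day 3 effect minus the day 0 effect. Slc16a1, the targeted gene, had an interaction of -1.06. In the pathway lists Socs3 had -0.99, Nlrc3 0.63 and Tlr9, a sensor of DNA, 0.60. Of the 11 further interferon-stimulated genes called, those with the widest difference were Ifi207 with -1.46 and Ly6c2 and Ifi204 with -1.26 each. In the lists of other cell types, Batf3 had -2.17, Flt3 -1.52 and Zbtb46 -0.61 (conventional dendritic cell list) and Cox6a2 -0.85 (plasmacytoid list). Jchain had -1.44 (plasma cell list), Hba-a1 -0.91 (red cell list), and Lyz2 0.57 and Adgre1 0.51 (macrophage and monocyte list). Batf3, Flt3, Zbtb46 and Cox6a2 had higher control means on day 3 than on day 0. By contrast, 5 of the 8 conventional and 6 of the 8 plasmacytoid genes were under 1 FPKM in every day 3 library. The genes named here passed the adjusted p of 0.05 and the fold limit.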

How the results depend on the processing

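With other settings, the 2 members called on day 3 became 1 with a pseudocount of 5, where 1.11% of all genes were called. There was 1 with no filter on low values (1.52% of all genes) and 1 with a mean of at least 5 FPKM (2.11%). There were 0 with a log2 limit of 1 (0.499%) and 12 with no limit (15.2%). Ifi44 and Rsad2 were both called without each of the day 3 Mct1f/fMb1Cre libraries. Rsad2 lost its call without either day 3 control library, which leaves 1 in that group. Without replicate 2 of the day 3 control the estimate of Bst2 was -0.557, past the fold limit. On day 0, 0 became 1 with no limit and 0 to 3 when a library was left out. The 6 members called in the interaction became 2 with no filter, 1 with a limit of 1, 9 with no limit and 3 to 9 when a library was left out. Activation calls ranged from 33 to 35 in the Mct1f/fMb1Cre cells and stayed at 34 in the control when a library was left out; they were 22 and 26 with a limit of 1 and 37 in each with no limit. Of all genes, 0.416% were called on day 0 with no limit. The interaction was called in 1.41% of all genes with no filter, 0.517% with a limit of 1 and 9.42% with no limit. Activation was called in 27.7% (Mct1f/fMb1Cre) and 29.5% (control) of all genes with a limit of 1, and in 85.5% and 84.6% with no limit. Members called higher in the Mct1f/fMb1Cre cells (29) were 27 with a common total or a pseudocount of 5 and 32 with median-of-ratios scaling. Of all genes, 2010, 2024 and 3333 were called higher under these settings, against 2532 as reported. Members with the promoter core rose from 16 to 30 when 1 mismatch was allowed, as did its share of all genes, from 3.99% to 38.9%. The Slc16a1 effect on day 0 (-0.05) ranged from -0.13 to 0.02 and turned positive, 0.024 and 0.001, without replicate 1 of either genotype; on day 3 it ranged from -1.16 to -1.07 when a library was left out and from -1.18 to -0.89 over all settings.

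Over all genes tested, deviations of libraries that share a replicate number were hardly correlated (-0.122 to 0.0642), and the libraries were treated as unpaired. With 2 or 3 libraries per group this cannot show whether they shared a mouse or a day of handling. In 30 members replicate 2 lay above replicate 1 in both genotypes on day 0, as in 22.8% of all genes. With a replicate block 5 members were called in the interaction, Isg15 not among them. The block gave 2 calls on day 3 and 0 on day 0, and 34 and 33 with activation. Crossing the numbers of the day 0 control libraries, chosen after seeing the data, left 34 calls in the control. Of 595 recomputed values of 28 single-gene results that were called, 35 lost the call. The 14 results that passed the adjusted p alone gained a call in 15 of 294 values, and 12 of the 14 (all but Bst2 and Ifih1 on day 3) lost the adjusted p in some setting, in 70 of 266 values. Apart from Slc16a1 on day 0, none of these changed sign. Isg15 lost its interaction call in 11 of 21 settings. Every group held 2 or 3 libraries and the depth is unknown.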
